A study of Mus musculus with 18 samples.

Results

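The immediate early response genes followed here are 10 genes, Fos, Fosb, Jun, Junb, Egr1, Ier2, Ier3, Dusp1, Btg2 and Zfp36, chosen by their symbols. They are 10 of the 54347 genes in the deposited table, and 10 of 10 passed the filter on low counts, as did 12973 genes in all. RNA was measured in leukemia stem cells (LSCs), sorted by fluorescence-activated cell sorting from marrow (strain C57BL/6JRj), on day 30 of induced leukemia, with 7000 cells per mouse. The Prx1-Cxcl12-mutant group held 5 mice, numbered 6, 7, 8, 10 and 12, and the control group, labelled Prx1-Cxcl12-wild type, held 4 mice, numbered 1 to 4. Each mouse gave 2 technical libraries, 18 in all, made by a MARS-seq protocol that reads the 3' ends of polyadenylated transcripts. As background, Prx1 regulatory sequence is widely used to drive recombination in limb mesenchyme and the marrow stroma that derives from it, and Cxcl12 encodes a chemokine that such stroma uses to retain haematopoietic cells. Whether the leukemia cells carry the mutation too is not given in the sources used here, nor are the leukemia driver, the sorting markers, or the sex and age of the mice.

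Immediate early genes are transcribed within minutes of a stimulus, without new protein synthesis, when MAP kinases and calcium or cyclic AMP signals reach transcription factors that already sit at their promoters, such as SRF with its ETS partners and CREB. Their mRNAs are short-lived, and several members encode the factors that end the response, by dephosphorylating MAP kinases or by removing the poly(A) tails of the same mRNAs. In blood progenitors these genes are known to respond to cytokines and adhesion, and also to the handling of cells during dissociation and sorting.

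No member passed the test between mutant and control mice (edgeR quasi-likelihood test, adjusted p under 0.05 over all tested genes), against 9 of 12973 genes, or 0.0694 percent, over the whole table. DESeq2 called 0 of the 10 members as well, against 88 of 13813 genes, or 0.637 percent. At an unadjusted p under 0.05 in DESeq2, 5 members were lower (Ier3, Dusp1, Btg2, Ier2 and Zfp36), beside 4.79 percent of all genes lower. Jun was not among them (DESeq2 unadjusted p = 0.0589). The log2 fold change of mutant over control was below 0 in 10 of 10 members, with a median of -0.59, beside 48.3 percent of all tested genes below 0 and a median of 0.01. Most members deviated together over the mice, as described below, so these are not 10 separate observations. The list was also chosen with earlier results of these data known. At an unadjusted p under 0.05, 4 members were lower in mutants (Ier3, Btg2, Dusp1 and Jun) and 0 were higher, beside 4.89 percent of all tested genes lower and 4.96 percent higher. The groups overlapped in 10 of 10 members, and did not overlap in 4 percent of all tested genes. Controls 1 and 2 were the highest 2 controls in 10 of 10 members, beside 16 percent of all tested genes. They lay above every mutant in 9 members, while controls 3 and 4 lay at or below the highest mutant in 9. For these counts against mutants the share over all tested genes is not given here.

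The median of the members was -0.59 with every mouse, -0.38 without control 2 and -0.43 without control 1. Total counts per mouse ran from 11766553 to 16785063 in controls and from 15959104 to 25485975 in mutants, so that 3 counts correspond to 0.237 CPM (the count of a gene relative to the scaled total count of its mouse) in the shallowest mouse and 0.120 CPM in the deepest. Marker genes of myeloid progenitors were tested in 10 of 10 cases and summed to between 9702 and 11530 CPM in controls and between 9071 and 17381 CPM in mutants, most of it from the granule protease genes Prtn3, Ctsg and Elane. Kit, a progenitor receptor gene, was between 23.5 and 27.4 CPM in controls and between 16.1 and 21.8 CPM in mutants. Of the 10 markers, 5 had a log2 fold change below 0 and the others did not, and 0 were called by edgeR. Cxcl12 itself was between 0 and 0.237 CPM in the sorted cells, which is no check of a deletion in stroma. In bulk samples, fewer cells that express a gene and less RNA of it per cell cannot be told apart.

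**Figure D1:**
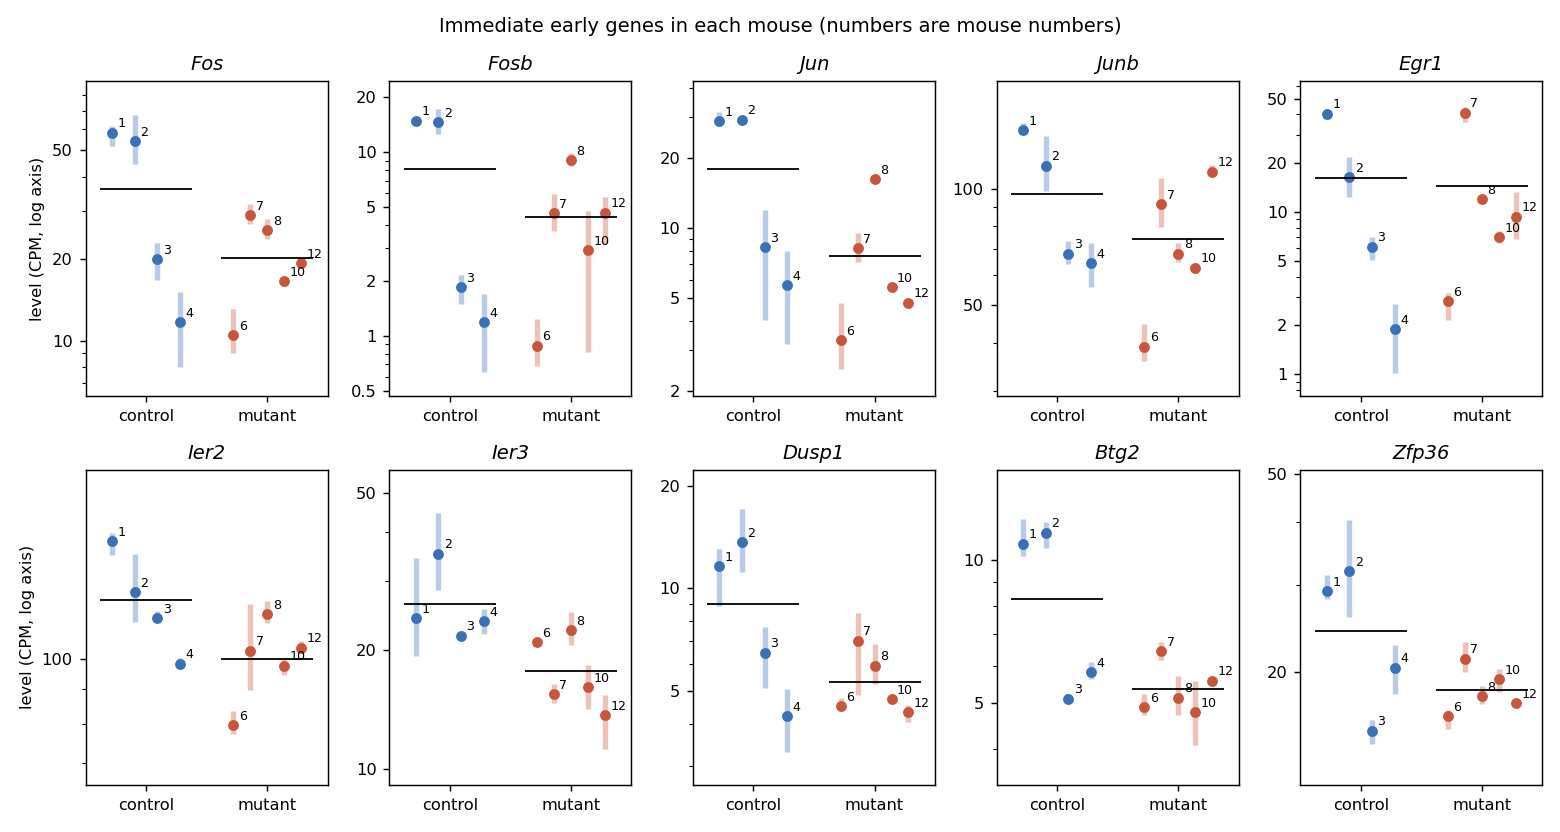
Level of each immediate early gene in each mouse, in CPM on a log axis, for control (blue) and mutant (red) mice. Points are mouse sums, bars span both technical libraries of a mouse and horizontal lines are group means of CPM. Controls 1 and 2 are the highest 2 controls in 10 of 10 panels, and controls 3 and 4 lie within the range of the mutants in 6.

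Promoter sequences are shown for 5 members, since most members deviated together over the mice, as described below, and some of the known inputs of early genes act through short motifs near the start. RefSeq promoters (GRCm38.p6, 250 bases before the start to 50 after it) were found for 8 of the 10 members. For Fos (chr12:85473640-85473889, plus strand), Btg2 (chr1:134079156-134079405, minus strand), Dusp1 (chr17:26508520-26508722, minus strand) and Ier3 (chr17:35821463-35821683, plus strand), the bases before the start that lie in no annotated exon are given. For Zfp36 (chr7:28379267-28379296, minus strand) 30 bases around its CArG box are given, since another transcript model starts further upstream. Sequences read 5′ to 3′ on the gene's strand, and capitals mark matches to the CArG box, the CRE, the CRE core or the NF-kB motif.
Fos: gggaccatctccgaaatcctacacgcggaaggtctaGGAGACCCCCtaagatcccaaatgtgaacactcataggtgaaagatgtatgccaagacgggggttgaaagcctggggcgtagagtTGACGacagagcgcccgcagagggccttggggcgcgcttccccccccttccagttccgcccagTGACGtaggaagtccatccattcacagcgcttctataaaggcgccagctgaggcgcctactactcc
Btg2: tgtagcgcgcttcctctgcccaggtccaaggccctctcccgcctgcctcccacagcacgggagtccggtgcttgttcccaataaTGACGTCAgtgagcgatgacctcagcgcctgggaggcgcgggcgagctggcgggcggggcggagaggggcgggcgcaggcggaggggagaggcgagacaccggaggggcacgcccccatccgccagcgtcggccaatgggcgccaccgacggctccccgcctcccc
Dusp1: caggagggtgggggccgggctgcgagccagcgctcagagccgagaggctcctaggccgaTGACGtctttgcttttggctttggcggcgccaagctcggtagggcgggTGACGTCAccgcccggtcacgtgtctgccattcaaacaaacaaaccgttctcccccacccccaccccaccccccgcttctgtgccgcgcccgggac
Ier3: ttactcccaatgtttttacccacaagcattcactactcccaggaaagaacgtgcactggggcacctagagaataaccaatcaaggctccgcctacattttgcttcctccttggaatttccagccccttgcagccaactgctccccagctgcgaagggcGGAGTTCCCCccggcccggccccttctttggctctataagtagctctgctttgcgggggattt
Zfp36: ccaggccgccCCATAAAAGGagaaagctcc

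Each of 8 motifs was searched on both strands of the 300 bases. The CRE, the palindrome TGACGTCA bound by CREB and ATF proteins, was in 2 of 8 member promoters, Dusp1 (positions -143 to -136 from the start) and Btg2 (-166 to -159), and in 1.79 percent of all 32851 promoters in the table. Its core TGACG, which lies inside every full CRE, was in 5 of 8 (Fos, Fosb, Junb, Dusp1 and Btg2) and in 20.8 percent of all. Fos held the core at 2 places, -129 to -125 and -66 to -62. The CArG box, which SRF binds, was in Zfp36 alone (-58 to -49) and in 1.63 percent of all promoters. The known serum response element of Fos, which SRF binds with an ETS partner, lies further upstream than this window. The NF-kB motif was in Fos, Fosb and Ier3 and in 4.51 percent of all. The ETS motif CCGGAA was in Zfp36 and in 14.9 percent of all. TATAAA was in Fos (-33 to -28), in Junb (1 to 6, after the start) and in 13.6 percent of all. The AP-1 motif TGANTCA (7.81 percent of all promoters) and the EGR motif GCGTGGGCG (0.612 percent) were in 0 of 8. A match describes letters in this window and is no measured binding.

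Fos, Fosb, Jun and Junb encode subunits of AP-1, the dimeric transcription factor in which a FOS protein pairs with a JUN protein. Fos (ENSMUSG000000212503 in the table, an Ensembl ID with an added digit; GRCm38 chromosome 12, 85473890 to 85477273, plus strand) stood at 58.1, 54.1, 19.95 and 11.7 CPM in controls 1 to 4 and at 10.5, 28.9, 25.5, 16.5 and 19.3 CPM in mutants 6, 7, 8, 10 and 12. Controls 1 and 2 were above every mutant, whereas controls 3 and 4 were inside the range of the mutants. Controls averaged 36.0 ± 23.5 CPM (SD, n = 4) and mutants 20.1 ± 7.28 CPM (SD, n = 5). On the log2 scale mutant over control was -0.83 (SE 0.42, edgeR adjusted p = 0.537), -0.50 without control 1 and -0.53 in limma-voom on the 18 libraries (-0.54 with a replicate block).

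Fosb (ENSMUSG00000003545, chromosome 7, 19302696 to 19310051, minus strand), a close relative of Fos, stood at 14.8 and 14.5 CPM in controls 1 and 2, and at 1.84 and 1.19 CPM in controls 3 and 4. Its mutant values were 0.881, 4.66, 9.02, 2.93 and 4.68 CPM. The highest control had 12.5 times the level of the lowest, and the highest mutant 10.2 times that of the lowest mutant. The log2 fold change was -0.85 (SE 0.70, edgeR adjusted p = 0.713), became -0.39 without control 1 and -0.38 without control 2, and was -1.28 without mutant 8. It was -0.29 in limma-voom on mouse sums, and -0.36 on the 18 libraries (-0.35 with a replicate block). Mutant 6 was below every control, and the other mutants lay between the upper and the lower pair of controls.

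Jun (ENSMUSG00000052684, chromosome 4, 95049034 to 95052222, minus strand) encodes the main partner of FOS. Its controls stood at 28.7, 29.2, 8.31 and 5.69 CPM, and its mutants at 3.30, 8.19, 16.2, 5.60 and 4.80 CPM. Of the members it had the largest log2 fold change, -1.22 (SE 0.52, edgeR adjusted p = 0.459), with a control mean of 17.96 ± 12.7 CPM (SD, n = 4) and a mutant mean of 7.62 ± 5.12 CPM (SD, n = 5). Controls 1 and 2 were nearly equal and above every mutant, and 3 of the 5 mutants were below the lowest control. Jun overlaps the antisense gene Junos by 689 bases, and the strand setting of the counting is not given in the sources used here, so reads of both cannot be told apart in that stretch.

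Junb (ENSMUSG00000052837, chromosome 8, 84974484 to 84978718, minus strand) encodes a JUN protein that often restrains growth. Its controls stood at 142, 115, 68.0 and 64.2 CPM. Its mutants stood at 39.1, 91.3, 68.1, 62.5 and 111 CPM, so that mutants 7 and 12 lay well above controls 3 and 4, and mutants 8 and 10 close to them. For Junb the log2 fold change was -0.39 (SE 0.29, edgeR adjusted p = 0.686), with means of 97.4 ± 37.8 CPM (SD, n = 4) and 74.4 ± 27.6 CPM (SD, n = 5). It was -0.15 without control 1, -0.22 without mutant 6, -0.12 with total count as covariate and -0.23 from second libraries alone. Junb shares 351 bases with Prdx2 on the opposite strand.

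Egr1 (ENSMUSG00000038418, chromosome 18, 34859823 to 34864984, plus strand) encodes a zinc finger transcription factor of the same early wave. It stood at 40.3, 16.4, 6.13 and 1.90 CPM in controls and at 2.81, 40.9, 12.03, 7.01 and 9.37 CPM in mutants. It was the only member whose highest mouse was a mutant, mutant 7. The means nearly coincided, at 16.2 ± 17.2 CPM for the controls (SD, n = 4) and 14.4 ± 15.2 CPM for the mutants (SD, n = 5), and the log2 fold change was -0.13 (SE 0.77, edgeR adjusted p = 0.968). This direction rested on single mice: the log2 fold change was 0.84 without control 1, 0.13 without mutant 6, 0.04 without mutant 10 and -1.03 without mutant 7. It was -0.47 with total count as covariate and 0.25 in limma-voom on mouse sums.

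Ier2 and Ier3 are named only for their early response, and IER3 is known as a modulator of cell survival. Ier2 (ENSMUSG00000053560, chromosome 8, 84661331 to 84662852, minus strand) stood at 149, 126, 115 and 98.3 CPM in controls and at 79.6, 103, 116, 97.5 and 104 CPM in mutants. Its spread between mice was the smallest of the members, and controls 3 and 4 were inside the mutant range. Its log2 fold change was -0.29 (SE 0.13, edgeR adjusted p = 0.507), with means of 122 ± 21.3 CPM (SD, n = 4) and 99.99 ± 13.3 CPM (SD, n = 5), and -0.17 without control 1.

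Ier3 (ENSMUSG00000003541, chromosome 17, 35821684 to 35822923, plus strand) had the smallest p of the members, 0.00729 before and 0.337 after adjustment in edgeR. Its controls stood at 24.2, 35.2, 21.8 and 23.7 CPM and its mutants at 21.0, 15.5, 22.5, 16.1 and 13.7 CPM. Here 3 of the 4 controls were above every mutant, and control 3 was below mutant 8 alone. The log2 fold change was -0.56 (SE 0.18), with means of 26.2 ± 6.08 CPM (SD, n = 4) and 17.8 ± 3.78 CPM (SD, n = 5). The first library of each mouse gave -0.92 and the second gave -0.27, and both libraries of control 1 differed, at 34.2 and 19.3 CPM.

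Dusp1, Btg2 and Zfp36 encode brakes on the response. DUSP1 dephosphorylates MAP kinases in the nucleus. Dusp1 (ENSMUSG00000024190, chromosome 17, 26505590 to 26562128, minus strand) stood at 11.6, 13.7, 6.47 and 4.21 CPM in controls and at 4.52, 7.02, 5.93, 4.73 and 4.33 CPM in mutants. The mutants lay above the lowest control and, except mutant 7, below control 3, and the log2 fold change was -0.75 (SE 0.30, edgeR adjusted p = 0.426). It was -0.47 without control 2. The annotated gene overlaps 4 others, Ergic1 and Gm8225 on the opposite strand and AC122252.4 and AC122252.1 on the same strand, which leaves its count uncertain.

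BTG2 recruits the CCR4-NOT deadenylase and slows proliferation. Btg2 (ENSMUSG00000020423, chromosome 1, 134075170 to 134079120, minus strand) stood at 10.8 and 11.4 CPM in controls 1 and 2, and at 5.11 and 5.81 CPM in controls 3 and 4. The 5 mutants stood at 4.90, 6.42, 5.14, 4.78 and 5.57 CPM, so that the lower pair of controls was among them. Means were 8.28 ± 3.28 CPM (SD, n = 4) and 5.36 ± 0.665 CPM (SD, n = 5), and the log2 fold change was -0.62 (SE 0.24, edgeR adjusted p = 0.408).

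ZFP36, also called tristetraprolin, binds AU-rich elements in mRNAs, those of early genes and cytokines included, and speeds their decay. Zfp36 (ENSMUSG00000044786, chromosome 7, 28376784 to 28380253, minus strand) stood at 29.1, 31.9, 15.3 and 20.4 CPM in controls and at 16.3, 21.3, 17.9, 19.3 and 17.3 CPM in mutants. Control 3 was below every mutant and control 4 was below mutant 7. Its log2 fold change was -0.39 (SE 0.19, edgeR adjusted p = 0.520), -0.22 without control 2 and -0.23 from second libraries alone. The gene overlaps the antisense Gm44710 by 1274 bases.

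**Figure D2:**
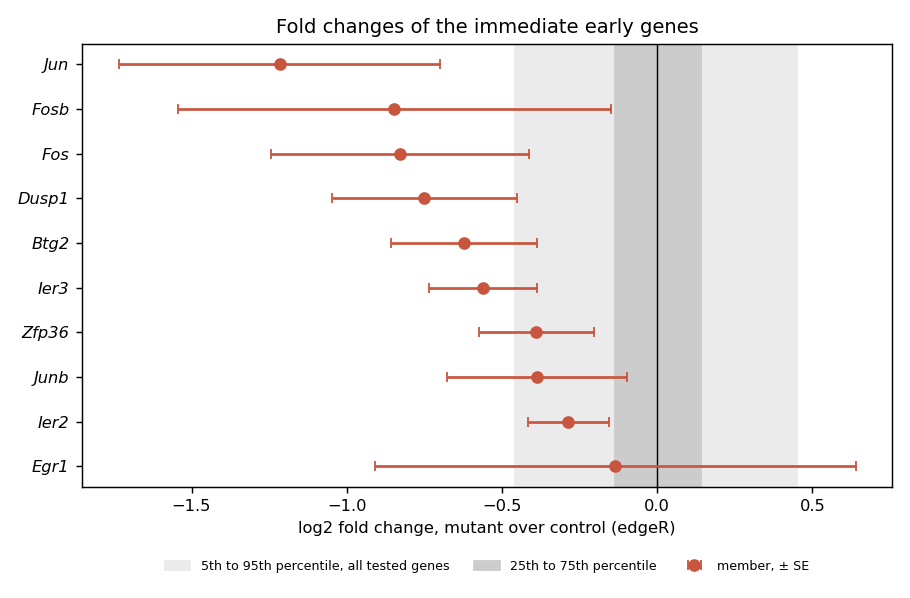
Log2 fold change of mutant over control for each immediate early gene (points, edgeR) with its SE (bars), over bands from the 25th to the 75th and from the 5th to the 95th percentile of all tested genes. The 10 points lie below 0, from -1.22 for Jun to -0.13 for Egr1, and 0 of them passed the adjusted threshold.

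The spread over mice differed widely among the members. The biological coefficient of variation that edgeR estimated within groups was 77.7 percent for Egr1, 71.9 percent for Fosb, 52.9 percent for Jun and 42.8 percent for Fos, against a median of 16.2 percent over all tested genes. These values lay at the 99.5th, 99.3rd, 98.5th and 96.3rd percentile of tested genes. Dusp1 (31.1 percent), Junb (30.6 percent) and Btg2 (24.8 percent) were next, followed by Zfp36 (19.9 percent) and Ier3 (18.9 percent), while Ier2 was at 15.2 percent, below the median. Controls varied more than mutants: the SD of log2 CPM was larger in controls for 9 of 10 members, Junb being the exception, and for 45.5 percent of all tested genes. For Btg2 the SD of log2 CPM was 0.59 in controls and 0.17 in mutants, for Zfp36 0.49 and 0.15, and for Dusp1 0.77 and 0.29.

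Technical libraries of one mouse resembled each other more than mice of one group did. The SD of log2 CPM between mice (from mouse sums) exceeded that between libraries of a mouse (from single libraries) in 10 of 10 members. Single libraries are shallower than sums, and the share over all tested genes is not given here. For Egr1 the SD was 1.60 between mice and 0.46 between libraries, for Fos 0.85 and 0.32, and for Junb 0.57 and 0.20. Ier3 was the exception in size, at 0.30 for both. In 8 members, all but Ier2 and Ier3, each of the 4 libraries of controls 1 and 2 was above each of the 4 libraries of controls 3 and 4. The share of all tested genes with such a split of libraries is not given here either. The gap between libraries was widest for Fosb in mutant 10, at 4.81 and 0.812 CPM. Fosb also had the largest counting error, an SD of 0.34 in log2 CPM per library, since its counts per mouse were as low as 16.

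**Figure D3:**
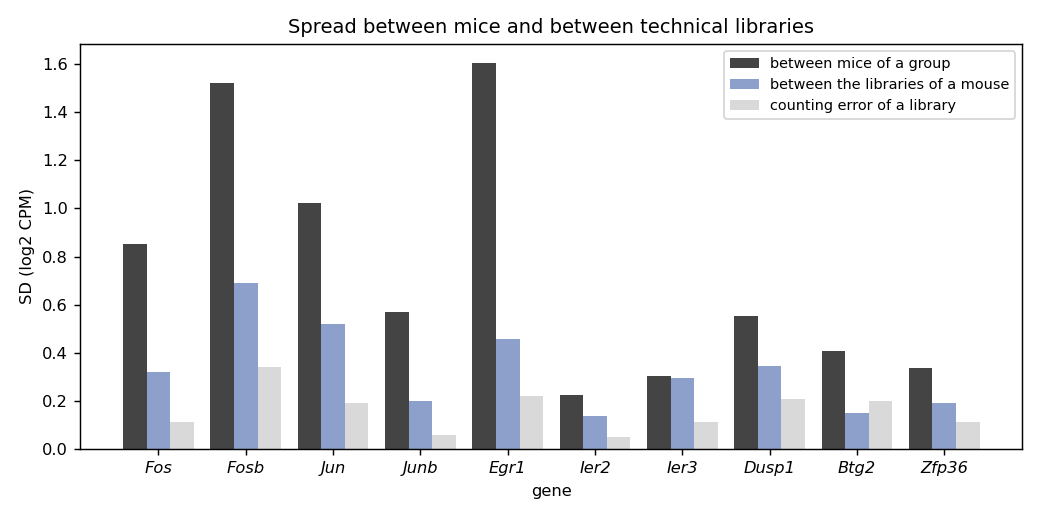
SD of log2 CPM of each immediate early gene between mice of a group (dark, mouse sums), between both libraries of a mouse (blue, single libraries) and from counting error alone (grey). The spread between mice is the tallest bar for 10 of 10 genes, and is nearly matched by that between libraries for Ier3.

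The members deviated together. For each gene the mean of its group was taken off log2 CPM, and Pearson's r was computed over the 9 mice, as a description that uses no difference between groups. Of 45 pairs of members, 43 had r above 0, with a median of 0.77 and a range from -0.21 for Junb with Ier3 to 0.96 for Fos with Fosb. Fos with all other tested genes gave a median r of -0.01, with the 10th and 90th percentiles at -0.48 and 0.49. The r of a member with the mean of the other 9 was 0.99 for Fos, 0.95 for Fosb, 0.92 for Jun, 0.91 for Dusp1, 0.88 for Ier2, 0.87 for Egr1, 0.86 for Btg2, 0.79 for Junb and 0.78 for Zfp36. Ier3 stood apart at 0.23. The points share their libraries, and 9 mice allow no finer order.

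The mean deviation of the members differed between mice of a group. It was 0.79 in control 1, 0.69 in control 2, -0.55 in control 3 and -0.92 in control 4 on the log2 scale. Among mutants it was -0.68 in mutant 6, 0.45 in mutant 7, 0.40 in mutant 8, -0.17 in mutant 10 and 0.00 in mutant 12. Mutant 6 was the lowest mutant in 7 of the 10 members. A split of controls 1 and 2 above controls 3 and 4 was found in 16 percent of all tested genes and the opposite split in 15.4 percent, beside 10 of 10 members. Control 1 was the shallowest of the mice and mutants 7 and 8 were the deepest. Mitochondrially encoded transcripts made up 0.0701 percent of the counts in mutant 7, and between 0.161 and 0.263 percent in the others. The part of depth and RNA composition in these deviations was not tested.

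**Figure D4:**
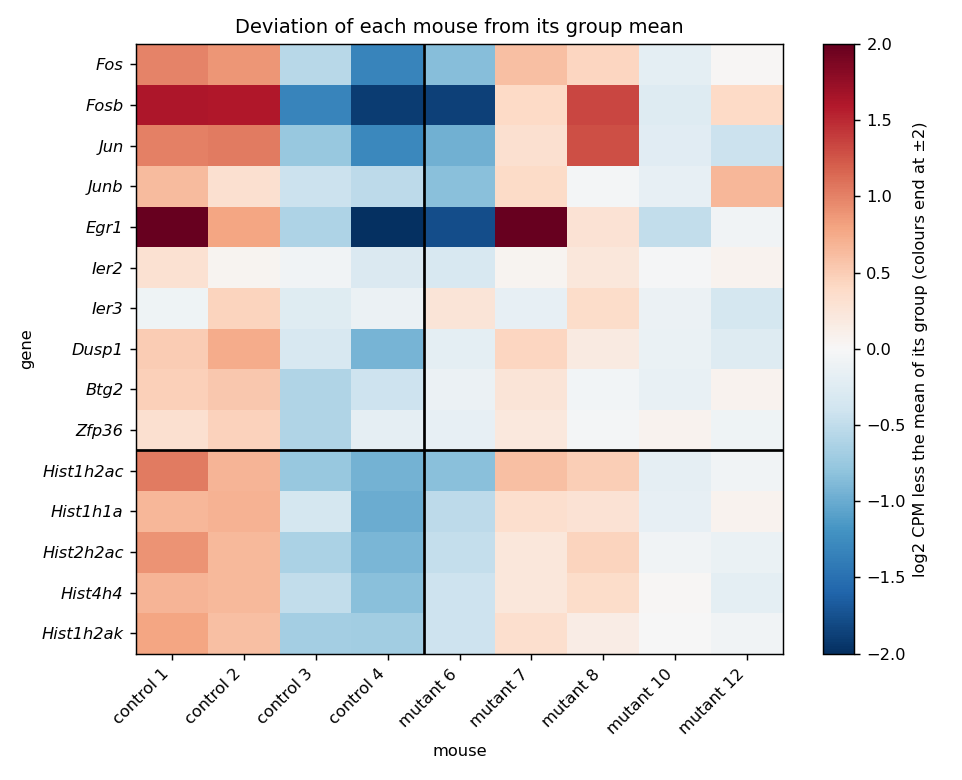
Deviation of each mouse from its group mean (log2 CPM, colour from -2 in blue to 2 in red) for the 10 immediate early genes and, below the line, the 5 other genes most like them. Controls 1 and 2 are red and controls 3 and 4 blue in most rows, mutant 6 is blue in most rows, and Ier3 follows the pattern least.

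Among 8349 genes outside the lists whose mean level reached 5 CPM, the 5 whose deviations were most like the mean of the members were histone genes: Hist1h2ac (r = 0.99), Hist1h1a (0.98), Hist2h2ac (0.98), Hist4h4 (0.97) and Hist1h2ak (0.96). They encode core and linker histones, whose clustered copies are near-identical, so the split of reads among them is uncertain. The protocol reads polyadenylated transcripts, so histone mRNA without a poly(A) tail need not be covered by these counts. Hist1h2ac stood at 40.2, 31.3, 11.5 and 10.1 CPM in controls and at 12.5, 34.0, 31.3, 19.6 and 21.2 CPM in mutants, with the same mice high and low as for Fos. These 5 had nearly equal group means, with log2 fold changes from -0.06 to 0.05 and edgeR adjusted p-values from 0.966 to 0.980.

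Other genes of the early response were grouped in lists by role. None of the 7 lists held a gene that passed the edgeR test over all genes (adjusted p under 0.05), and their unadjusted counts follow. Of 22 other early transcription factor genes, 16 were tested, 12 below 0 and 4 above, with a median log2 fold change of -0.18, and at an unadjusted p under 0.05 4 were lower and 1 was higher. Id1, an inhibitor of helix-loop-helix factors, averaged 80.2 ± 4.45 CPM over controls (SD, n = 4) and 63.4 ± 6.17 CPM over mutants (SD, n = 5), with an adjusted p of 0.259 in edgeR. Its deviations did not follow those of the members (r = -0.48), nor did those of Cebpd (log2 fold change -0.31, r = -0.24), a C/EBP factor gene of myeloid cells. Of 22 other early genes that encode no transcription factor, 18 were tested, 12 below 0 and 6 above, with a median of -0.21, and 4 were lower and 0 higher at an unadjusted p under 0.05.

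Ier5l, a relative of Ier2, had the smallest p of all the genes in these lists. It stood at 6.71, 7.66, 6.27 and 6.10 CPM in controls and at 2.70, 3.45, 4.80, 3.97 and 2.85 CPM in mutants. Its groups did not overlap, and controls 1 and 2 did not stand far from controls 3 and 4. The log2 fold change was -0.90 (SE 0.19, edgeR adjusted p = 0.150), which did not pass. Ier5, of the same family, went from 31.4 ± 7.19 CPM (SD, n = 4) to 22.8 ± 4.72 CPM (SD, n = 5), with overlapping groups and an edgeR adjusted p of 0.409.

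The feedback list of MAP kinase phosphatase, Sprouty and Spred genes had 9 of 14 members tested, 6 below 0 and 3 above, with a median of -0.15, and 1 lower at an unadjusted p under 0.05. Dusp5, an ERK phosphatase gene, stood at 5.37, 5.34, 4.22 and 4.15 CPM in controls and at 2.59, 3.29, 2.55, 2.17 and 2.61 CPM in mutants, with groups that did not overlap. Its log2 fold change was -0.85 (SE 0.18, edgeR adjusted p = 0.169), and its deviations ran with those of the members (r = 0.74), controls 1 and 2 being above controls 3 and 4. Dusp2, a nuclear MAP kinase phosphatase gene, followed the members closely (r = 0.97), at 78.3, 69.7, 45.4 and 43.6 CPM in controls and 42.4, 57.7, 55.6, 44.4 and 45.2 CPM in mutants. Its log2 fold change was -0.27 (SE 0.17, edgeR adjusted p = 0.634).

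Genes upstream and downstream of the response were centred near 0. Of 22 MAP kinase cascade genes, 21 were tested, 12 above 0 and 9 below, with a median of 0.01, and 0 had an unadjusted p under 0.05. Among them Rps6ka3, which encodes an RSK kinase, had a log2 fold change of 0.34 (SE 0.20, edgeR adjusted p = 0.594). Of 13 genes for SRF, its partners and CREB proteins, 13 were tested, 8 above 0 and 5 below, with a median of 0.07, and 3 were lower and 0 higher at an unadjusted p under 0.05. The CREB coactivator gene Crtc3 was at -0.27 (edgeR adjusted p = 0.369) and the SRF coactivator gene Mrtfa at -0.26 (edgeR adjusted p = 0.408). Of 17 relatives of Zfp36 and Btg2 and subunits of CCR4-NOT, 16 were tested, 9 above 0 and 7 below, with a median of 0.04. Tob1 (-0.40, edgeR adjusted p = 0.537) and Btg1 (-0.27, adjusted p = 0.537), both antiproliferative relatives of Btg2, had the smallest p there, and 0 of the list had an unadjusted p under 0.05.

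Heat shock genes, some of which also respond to the handling of cells, had log2 fold changes centred near 0. A median fold change between groups does not measure handling that differs from mouse to mouse, and the part of handling was not tested. Of 13 listed, 12 were tested, 7 above 0 and 5 below, with a median log2 fold change of 0.02, and 0 had an unadjusted p under 0.05. The smallest p belonged to Hsph1, a co-chaperone gene, at 27.9, 16.5, 16.8 and 31.6 CPM in controls, where controls 1 and 4 were high, and at 11.95, 12.2, 19.3, 22.99 and 15.6 CPM in mutants. Its log2 fold change was -0.50 (SE 0.24, edgeR adjusted p = 0.520), and that of Hspa8, a constitutive chaperone gene, was -0.17 (edgeR adjusted p = 0.645). Hspa1a (0.05, SE 0.67) and Hspa1b (0.13, SE 0.62) had wide errors, and r with the members of 0.46 and 0.34. Within the list r ran from -0.59 for Hsf1 to 0.69 for Hsp90ab1. The median r with the mean of the members was 0.31 for the heat shock list, 0.42 for the other transcription factors, 0.52 for the other early genes and 0.46 for the feedback genes. It was -0.13 for the MAP kinase cascade, -0.08 for SRF and CREB genes and 0.07 for the decay genes.

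**Figure D5:**
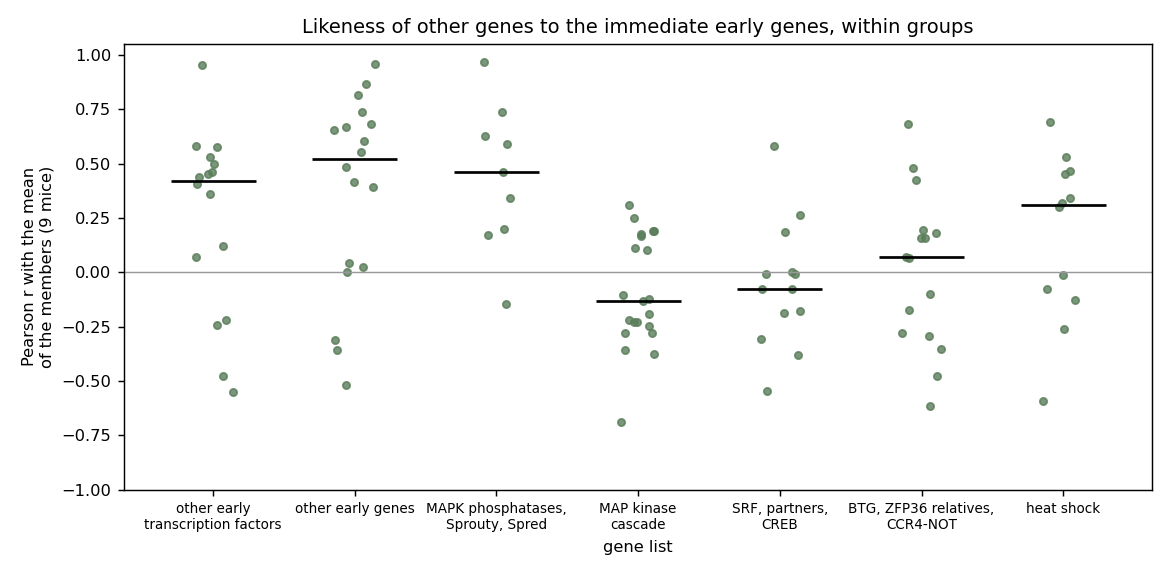
Pearson's r over the 9 mice between each tested gene of 7 lists and the mean deviation of the immediate early genes, after the group mean was taken off. Each point is a gene and each bar the median of its list, from 0.52 for other early genes to -0.13 for the MAP kinase cascade.

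Markers of other cell types were summed per mouse, since the sort could hold other cells. Neutrophil markers (8 of 9 tested) summed to between 423 and 935 CPM in controls and between 200 and 434 CPM in mutants. Their r with the members was -0.36. Of these, Camp alone was between 281 and 550 CPM in controls and 75.3 and 195 CPM in mutants. The rest overlapped, at 138 to 385 and 125 to 314 CPM. Ltf leaned the other way, at 2.32 to 10.2 CPM in controls and 9.24 to 19.98 CPM in mutants. Of the 8 tested neutrophil markers, 4 had a log2 fold change below 0, the others did not, and 0 were called by edgeR. Monocyte and macrophage markers (6 of 9 tested), mostly Ly6c2, were between 650 and 1377 CPM in controls and between 696 and 1443 CPM in mutants. Without Ly6c2 the ranges barely overlapped, at 83.9 to 104 CPM in controls and 71.5 to 84.2 CPM in mutants. Of the 6 tested, 4 had a log2 fold change below 0 and 0 were called by edgeR. Erythroid markers (6 of 9 tested) were between 5.98 and 51.3 CPM in controls and between 14.3 and 58.0 CPM in mutants. They were the list whose deviations were most like those of the members (r = 0.57). By mouse, erythroid markers were at 10.5, 51.3, 7.70 and 5.98 CPM in controls 1 to 4. In mutants 6, 7, 8, 10 and 12 they were at 41.2, 58.0, 43.7, 24.5 and 14.3 CPM. Of the 6 tested, 0 had a log2 fold change below 0 and 0 were called by edgeR. B cell markers (3 of 7 tested), most of their sum being Cd79b, were between 55.4 and 78.0 CPM in controls and 50.5 and 68.7 CPM in mutants. T and NK cell markers (1 of 7 tested, Cd3g at 0) were between 89.3 and 144 CPM and between 102 and 194 CPM, and nearly all of it was Nkg7.

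Less abundant were the markers of megakaryocytes (3 of 6 tested), at 30.2 to 41.1 CPM in controls and 21.6 to 33.2 CPM in mutants, and 1 of them, Itga2b, passed the edgeR test and was lower in mutants. Mast cell and basophil markers (2 of 6 tested, Tpsb2 at 0) gave 8.69 to 20.6 CPM in controls and 9.15 to 17.9 CPM in mutants. Of these, Mcpt8 alone was between 5.37 and 10.7 CPM in controls and between 8.19 and 15.2 CPM in mutants. The rest did not overlap, at 3.32 to 9.87 CPM in controls and 0.963 to 2.63 CPM in mutants. Within it Cpa3 alone overlapped, at 1.90 to 9.40 CPM and 0.803 to 2.09 CPM. Prss34 was uneven, at 0 to 3.80 CPM in controls and 0 to 0.119 CPM in mutants. Of the 2 tested, 1 had a log2 fold change below 0 and 0 were called by edgeR. Stromal markers (2 of 8 tested, Col3a1 and Pdgfra at 0) gave 6.64 to 9.16 CPM in controls and 4.02 to 10.1 CPM in mutants. Endothelial markers (1 of 6 tested, Emcn at 0) gave 37.4 to 51.3 CPM in controls and 32.1 to 46.7 CPM in mutants, nearly all of it from Pecam1. The part of other cells in the levels of the early genes was not tested.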

How the data were processed

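RNA was measured in 18 libraries from 9 mice, 2 technical libraries per mouse. The authors deposited estimated counts per gene and library, of which 11.3 percent were not whole. Named in the submitters' processing notes are Salmon 1.3, bcl2fastq, FastQC and the build GRCm38. The annotation release, the strand setting and the use of molecular identifiers were not given in the sources used here. Table IDs were cut to 18 characters and matched to GENCODE mouse release 21 (54094 of 54347 matched).

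The counts of a mouse are its libraries' sum, rounded to whole numbers. Genes were filtered with filterByExpr (minimum count 10), scaled by TMM and tested with edgeR 4.0.16 (quasi-likelihood, 2-sided, no covariate, R 4.3.3), with Benjamini-Hochberg adjustment over 12973 genes and calls at 0.05. CPM values use TMM factors, and log2 CPM has a prior count of 2. Totals per library were 3825500 to 15071673. Counting intervals and floors cover counting error only. Mouse numbers are not shared between groups, so nothing pairs the mice.

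The members, the lists and the tests were chosen with earlier results of these data known. Named genes are the members, the 2 genes of each other list with the smallest p, and the 5 genes with a mean of at least 5 CPM, in no list, most like the members. Predicted genes and pseudogenes were left out of this choice, and 1 gene that it names is not reported here. Promoters are from RefSeq (GRCm38.p6); Egr1 and Ier2 had no entry that was matched. Alternatives were DESeq2 1.42.0, limma 3.58.1 with voom, RLE and upper-quartile factors, 2 other low-count filters, each library alone, all 18 libraries with the mouse as random effect, total count as covariate, a call threshold of 0.1, and the edgeR fit repeated without each mouse in turn. Simulated data were used to test the edgeR step.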

Additional observations from a re-analysis of the deposited data

Results flagged for a closer look

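Egr1 in mutant 7 stood at 40.9 CPM, far from the other 4 mutants, which lay between 2.81 and 12.03 CPM. Erythroid markers in control 2 summed to 51.3 CPM, far from the other controls, which lay between 5.98 and 10.5 CPM. Of 80 groups of values examined, these 2 had a sample set apart in this way, and chance does so in about 1 in 20 groups.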

How the results depend on the processing

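No member was called under any of the alternatives run. Of 207 values of single members, 201 were below 0, and the 6 above 0 were all of Egr1: 0.25 with limma-voom on mouse sums, 0.30 on 18 libraries with no replicate block, 0.29 with the replicate block, and, leaving out 1 mouse, a range from -1.03 to 0.84. The smallest adjusted p was 0.156, for Ier3 with DESeq2, and adjusted p for Ier3 ran up to 0.982 over its alternatives. The count of genes called over the whole table moved more: 88 with DESeq2, 21 with no low-count filter, 0 when genes were kept from a mean of 10 CPM, 0 and 3 with the first and second libraries alone, 62 on 18 libraries with no replicate block and 60 with the replicate block, 0 with total count as covariate, 0 without the first library of mutant 7 (added after the data were seen), and 0 to 7 leaving out 1 mouse. The cause was not tested. The median of the members ran from -0.78 without mutant 7 to -0.38 without control 2. With total count as covariate the adjusted p of the members was 0.982 or 0.988. Counting error was largest for Fosb, with 16 counts in a mouse.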

Other observations

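Because the 5 genes most like the members were histone genes, 62 tested histone genes were examined as a set, chosen after their values were seen and given with no test. Their deviations from the group means had a median r of 0.85 with the mean deviation of the early genes over the 9 mice, and 59 of 62 were above 0. Of 8349 candidate genes, 38 had an r of at least 0.9, which is 0.455 percent, and 27 of the 38 were histone genes. The median r over all candidates was -0.03. Taken singly, the histone genes had a median log2 fold change of 0.08, with 18 of 62 below 0 and 0 called by edgeR. Summed, histone genes took 0.626 and 0.606 percent of counts in controls 1 and 2, 0.445 and 0.479 percent in controls 3 and 4, and 0.677 to 0.735 percent in mutants. Every mutant was thus above every control in this share. Means were 0.539 ± 0.0905 percent in controls (SD, n = 4) and 0.706 ± 0.0228 percent in mutants (SD, n = 5). Mutant 6, lowest for most early genes, was at 0.705 percent. Abundant genes weigh most in this sum. The 27 histone genes with an r of at least 0.9 had mean levels of 5.15 to 83.2 CPM each. The share need not follow them. Near-identical histone copies share reads, so counts of single copies are uncertain. Histone counts of this protocol need not cover histone mRNA without a poly(A) tail.

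A few other early genes followed the members closely, and were chosen after their values were seen. The r with the mean of the members was 0.96 for Jund, the third JUN gene, 0.96 for Ppp1r15a, which encodes GADD34, a phosphatase subunit of the stress response, and 0.87 for Rhob, a small GTPase gene. Their log2 fold changes were -0.38, -0.40 and -0.34, with edgeR adjusted p-values of 0.738, 0.768 and 0.431.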
